A study of Mus musculus with 11 samples.

Results

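Abundant nuclear noncoding RNAs were followed here through 6 genes: Rn7sk, Rpph1, Rmrp and Terc, which are short RNAs, and Malat1 and Neat1, which are long ones. They were found by name, as the rows of the deposited table whose Ensembl identifiers carry these symbols in the GENCODE M21 annotation of GRCm38, and the rule uses no measured value, although the set was picked with earlier results of these data known. They are 6 of the 39179 genes in the table, and 6 of 6 passed the filter on low values, a mean of 10 normalized counts over the libraries. The study sequenced what its labels call polyA RNA of mouse embryonic stem cells (ESCs) and of embryoid bodies (EBs), the aggregates that ESCs form when they differentiate, in a Mettl3 knockout and in wild type. METTL3 is the catalytic subunit of the enzyme that writes N6-methyladenosine (m6A) on RNA.

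The groups were Mettl3-KO EBs with 2 libraries (replicates A and B), WT EBs with 2 (A and B), Mettl3-KO ESCs with 3 (A, B and C) and WT ESCs with 3 (A, B and C). All carry the strain name C57BL/6. ESCs were kept in a serum-free medium with LIF and the inhibitor pair known as 2i. EBs were grown on non-adherent plates in a serum medium for 8 to 21 days, and no label gives the day of a library. The labels do not say which part of Mettl3 was removed, or how many clones of each genotype were used. The replicate C libraries were made beside a SILAC protein measurement. The submitters call the replicates biological, but the labels do not say whether A and B came from separate cultures. The p-values of the main test therefore measure the spread between A and B, which may be technical. Those given with a replicate block, explained below, leave out the part of that spread that the groups share. A WT fibroblast library was not analysed here.

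Each of the 6 RNAs works in the nucleus. Rn7sk is the 7SK RNA, made by RNA polymerase III, which holds the elongation kinase P-TEFb in an inactive particle with HEXIM and LARP7. Rpph1 is the RNA subunit of RNase P, which trims the 5′ ends of tRNA precursors, and Rmrp is the related RNA of RNase MRP, which acts in ribosomal RNA processing. Terc is the template RNA of telomerase. Malat1 lies in nuclear speckles, and Neat1 is the scaffold of paraspeckles. In mammals the 3′ end of Malat1 and of the long form of Neat1 is cut by RNase P and carries no added poly(A) tail, whereas the short form of Neat1 is cleaved and polyadenylated like an mRNA.

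The 3′ ends are shown because a library made from polyA RNA selects on them. They were read from the GENCODE M21 transcripts, 5′ to 3′ as RNA-sense DNA letters. Capitals mark runs of at least 4 A and the polyadenylation hexamer AATAAA. For the 4 short RNAs the last 60 bases are printed, and they hold neither element. Rn7sk spans 331 bases at chr9:78175303-78175633, Rpph1 319 bases at chr14:50807449-50807767, Rmrp 271 bases at chr4:43492788-43493058 and Terc 423 bases at chr3:96414437-96414859. Each is a single exon on the minus strand of GRCm38.
Rn7sk, last 60 bases: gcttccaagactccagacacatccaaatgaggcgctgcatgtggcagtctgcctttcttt
Rpph1, last 60 bases: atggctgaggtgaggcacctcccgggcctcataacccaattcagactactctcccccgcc
Rmrp, last 60 bases: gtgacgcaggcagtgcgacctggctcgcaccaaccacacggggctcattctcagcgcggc
Terc, last 60 bases: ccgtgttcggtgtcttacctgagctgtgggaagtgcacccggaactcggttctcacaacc
Malat1 is annotated as a single exon of 6983 bases at chr19:5795690-5802672, minus strand. It holds a tract of 12 A that ends 298 bases before the annotated end, and an AATAAA that stops 16 bases short of that end. The window around the tract lies at chr19:5795968-5796047, and the annotated end at chr19:5795690-5795749.
Malat1, around the A tract: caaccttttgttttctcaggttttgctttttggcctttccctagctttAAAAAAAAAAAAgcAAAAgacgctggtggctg
Malat1, annotated end: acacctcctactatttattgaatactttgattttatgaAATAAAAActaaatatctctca
Neat1 lies 22035 bases from Malat1 on the same strand, at chr19:5824708-5845478. Its long RNA has 20771 bases, and its short RNA of 3004 bases ends at chr19:5842307-5842366 with an AATAAA 14 bases before the end.
Neat1, long RNA, last 60 bases: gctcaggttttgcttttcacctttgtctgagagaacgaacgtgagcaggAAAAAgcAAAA
Neat1, short RNA, last 60 bases: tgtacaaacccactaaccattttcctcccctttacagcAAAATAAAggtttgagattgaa

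Across 141515 GENCODE transcripts of at least 60 bases, 27.2% held an AATAAA in the last 60 bases on their own strand, the only strand searched. The share was 41.1% among protein-coding transcripts. A tract of 12 A occurred anywhere in 4.08% of transcripts and in the last 60 bases of 0.751%. The 4 short RNAs had neither, and their longest A run in the last 60 bases was 3 in Rn7sk and 2 in Rpph1, Rmrp and Terc. A match or its absence describes these letters only.

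The replicate C libraries stood apart before any result. The 2 C libraries held 3075007 (KO) and 3026837 (WT) reads in genes, and the 8 A and B libraries 8523027 to 15426894. All values below are counts divided by the authors' DESeq size factors, called normalized counts. The 4 short RNAs, which lack a poly(A) tail, took 6.5e-05% of gene reads in KO ESC C and 2.3e-04% in WT ESC C, against 3.33% to 6.87% in the A and B libraries. The labels give a single library protocol for all, so whether A and B were made in another way than C cannot be told, and a level in A and B need not be that of polyadenylated RNA alone. Whole reads could be recovered from them for 100% of values, within a tolerance of 0.01. Mettl3 itself fell in each KO library, to 154 and 147 in KO EBs, against 399 and 368 in WT EBs, and to 138, 133 and 131 in KO ESCs A, B and C, against 422, 392 and 425 in WT ESCs. ESC markers were present in every library. The summed level of 6 endoderm markers was 242 and 246 in KO EBs, against 41838 and 41875 in WT EBs, with Afp at 0 in KO EBs. The summed level of 6 fibroblast markers was 183 in KO ESC C and 227 in WT ESC C. It was 11023 to 11286 in KO ESCs A and B and 6560 to 6684 in WT ESCs A and B. Thy1 alone of the 6 went the other way. It had 97.2 in KO ESC C, against 29.4 and 30.9 in KO ESCs A and B, and 92.2 in WT ESC C, against 57.2 and 55.7. The part of any other cells in the levels below was not tested. In bulk RNA, fewer cells of a type and less RNA per cell cannot be told apart.

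Together the 6 RNAs took a large share of the reads in every A and B library and almost none in the C libraries. Their sum was 8.28% and 7.78% of gene reads in KO EBs A and B, and 4.85% and 4.31% in WT EBs. In the C libraries it was 0.00865% in KO ESCs and 0.0241% in WT ESCs. In ESC replicates A and B it was 7.45% and 6.87% in KO, against 6.59% and 5.74% in WT. The mean over the 8 A and B libraries was 6.48% ± 1.41 (SD, n = 8), and the KO libraries were above the WT libraries of the same cells in both letters. These are shares of PCR reads without molecular identifiers, so intervals and limits on them cover counting error only.

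**Figure D1:**
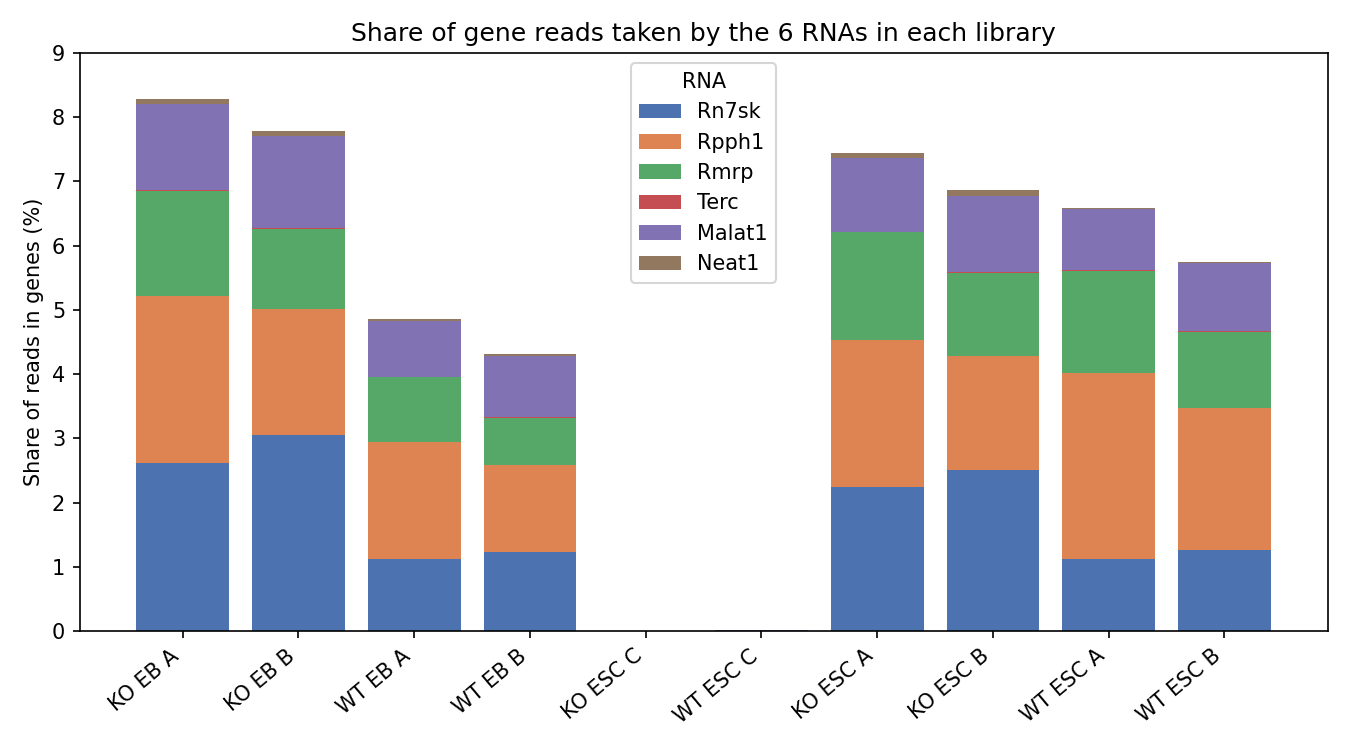
Share of the reads in genes (y axis, percent) that each of the 6 RNAs took in each of the 10 libraries (x axis), stacked. The bars of A and B libraries reach 4.31% to 8.28%, and those of the 2 replicate C libraries are too low to see, at 0.00865% and 0.0241%.

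By mean normalized count over the 8 A and B libraries, Rpph1 ranked 2, Rn7sk 3, Rmrp 4 and Malat1 6 among all genes of the table, Neat1 ranked 199 and Terc 2156. Levels can be set between genes only per length. Per kb of exon, Rpph1, Rn7sk and Rmrp held ranks 1 to 3, with means of 537272, 454814 and 388390 normalized counts per kb. Their library ranges overlapped, at 331915 to 809394 for Rpph1, 278497 to 665889 for Rn7sk and 215748 to 525353 for Rmrp, so their order was not fixed across libraries. Malat1 followed at 10133 to 14858 per kb (rank 18), then Terc at 1353 to 2548 (rank 222), and Neat1 at 36.2 to 349 (rank 2716). These values divide Neat1 by its full exon length of 20771 bases, and with it the ranges of Malat1, Terc and Neat1 overlapped neither each other nor those of the 3 short RNAs above them. Divided by the 3004 bases of its short RNA, Neat1 had 250.0 to 2413 per kb and overlapped Terc, so the order of those 2 depends on the length used.

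Short RNAs were nearly lost from the C libraries. Rn7sk had 2 reads in KO ESC C and 0 in WT ESC C. Rpph1 had 0 reads in KO ESC C and 7 in WT ESC C, and Rmrp and Terc had 0 in both. A count of 0 in these libraries allows a share of gene reads of up to 9.76e-05% in KO ESC C and 9.91e-05% in WT ESC C, the share of 3 reads.
Set against replicates A and B, with 3 reads per C library as the floor, Rmrp was at least 14667-fold lower in KO C and at least 12291-fold lower in WT C. Rpph1 was at least 20013-fold lower in KO C, and Rn7sk at least 10540-fold lower in WT C. Terc, the least abundant of the 4, was at least 97.4-fold lower in KO C and at least 81.9-fold lower in WT C. Where a few reads were seen, A and B exceeded C by a ratio of 34850 for Rn7sk in KO (95% counting interval 9647 to 287765) and of 9719 for Rpph1 in WT (4717 to 24174).

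Of the 2 long RNAs, Malat1 was also low in replicate C in both genotypes, and Neat1 in KO only. Malat1 had 628 normalized counts in KO ESC C (226 reads) and 1327 in WT ESC C (403 reads). Replicates A and B exceeded C by a ratio of 153 in KO (134 to 175) and of 66.3 in WT (60.1 to 73.3). Neat1 had 106 in KO ESC C (38 reads), below its A and B values by a ratio of 66.4 (48.4 to 93.9). In WT ESC C it had 1047 (318 reads), 1.31-fold above the mean of A and B. That WT difference was 0.39 ± 0.11 (log2, SE; limma adjusted p = 0.0114), in a comparison where 75% of all tested genes were called, with adjusted p from 6.4e-09 to 0.0559 over the alternatives. The call was lost without WT ESC A (0.31, adjusted p = 0.0559).

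Tested in each genotype, 6 of 6 RNAs were called lower in KO ESC C than in A and B by limma, where 76.4% of all tested genes were called, and 5 were called lower and Neat1 higher in WT ESC C. Averaged over both genotypes 6 of 6 were called lower, where 82% of all tested genes were called in either direction and 47.3% lower. For Neat1 that average joins −6.05 in KO with 0.39 in WT, and its call was lost with a single term for C in the fit (adjusted p = 0.0520). The median over all tested genes in this comparison was −0.22 on the log2 scale. For several of the 6 RNAs the direction was set by the filter on low values. Rn7sk, Rmrp and Terc averaged 2.78, 0 and 0 normalized counts over the C libraries. They passed through their A and B values alone, and Rpph1 had 0 in KO ESC C. The lower calls of Rn7sk, Rmrp and Terc, and that of Rpph1 in KO, therefore add no support. The filter does not set the size of these differences. Most other short RNAs that lack a poly(A) tail also had few or no reads in C. Of 18 listed (small nuclear, nucleolar, Cajal body, Y, vault and 7SL RNAs), 15 had no reads in either C library and 18 had reads in each A and B library. Rny1, Rny3, Rnu11, Rnu12 and Vaultrc5 averaged under 10 normalized counts, beside a floor of 8.33 (KO) and 9.88 (WT) for 3 reads in C. For them a low count in C says little. Vaultrc5 had 5.55 in KO ESC C, against 5.44 and 2.72 in KO ESCs A and B. Each of the 13 that passed the filter was lower in C. They had 0 to 8.33 normalized counts there and passed through their A and B values alone. That direction therefore follows from the filter and adds no support. The summed level of all 18 was 13.9 in KO ESC C and 3.29 in WT ESC C. It was 26481 to 26912 in KO ESCs A and B and 19686 to 22281 in WT ESCs A and B. Of 10 tested other long noncoding RNAs, 6 were called higher in C and 2 lower, and their median difference was 0.32. Among the higher ones were Snhg3 (1.78 ± 0.12) and the imprinted Meg3 (1.75 ± 0.08), and the lower ones were Firre (−1.13 ± 0.13) and Epb41l4aos (−0.34 ± 0.13, log2, SE). That median joins the genotypes. It was −0.02 in KO ESC C and 0.80 in WT ESC C, so by its median the list rose in WT C only.

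**Figure D2:**
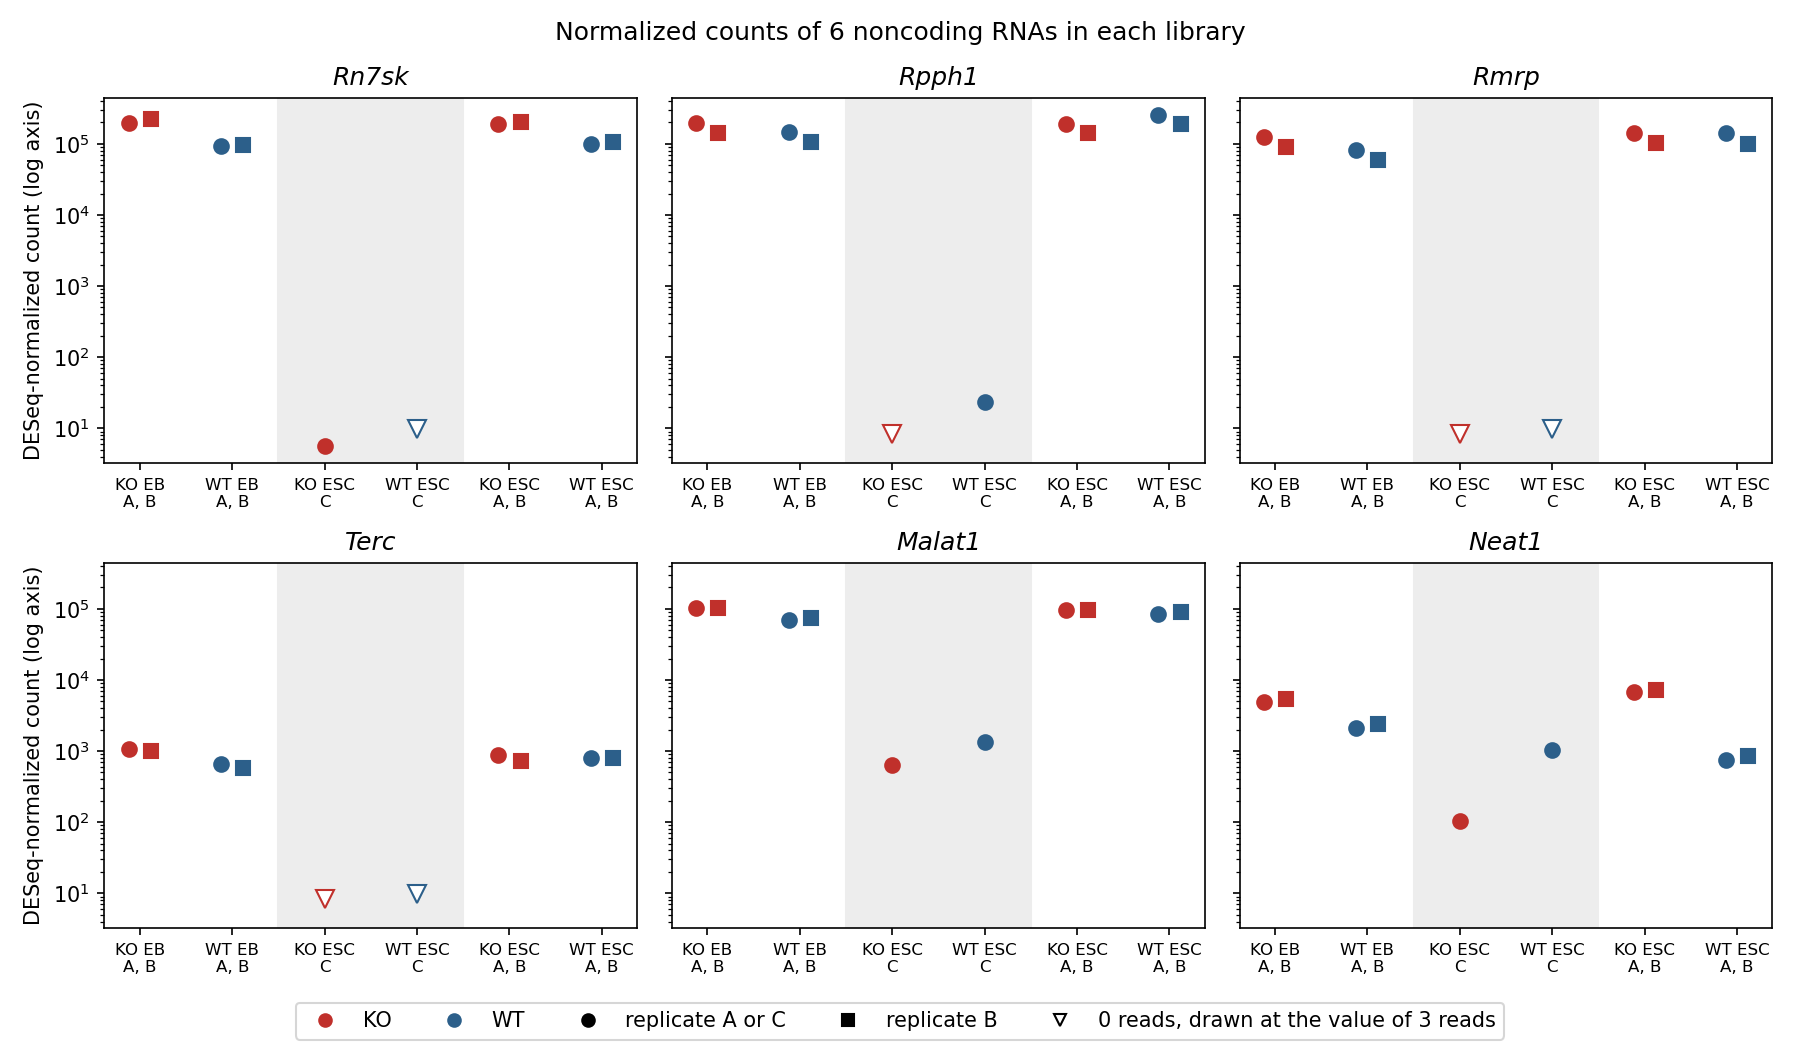
Normalized counts (y axis, log scale) of the 6 RNAs in each of the 10 libraries, by group (x axis), with replicate C on grey. Circles are replicates A or C, squares replicate B, and open triangles mark 0 reads drawn at the value of 3 reads. Each RNA drops in both C libraries except Neat1, which drops in the KO library only.

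The comparisons of genotype and of EBs with ESCs that follow use replicates A and B. A gene is called when its adjusted p is under 0.05 in limma's moderated test on log2(normalized count + 1), with Benjamini-Hochberg adjustment over 15781 genes, and differences are on that scale with their SE. Letters A and B also paired libraries across groups. A fit with the letter as a replicate block is therefore given where it changes a call of the 6 RNAs, a list's counts or a named gene. The block removes the A to B difference that the groups share. Its p-values thus measure only how that difference varied between groups. For Rpph1 in KO against WT EBs the block took the SE from 0.23 to 0.016. In KO against WT EBs 4 of 6 RNAs were called higher and 0 lower, with 6 of 6 higher under the block. Of all tested genes 51.8% were called there, 24.1% higher and 27.7% lower, and under the block 67.6%, 32.2% higher. In KO against WT ESCs 2 of 6 were called higher and 0 lower, and under the block 3 higher and 1 lower. Of all tested genes 55% were called there, 27.3% higher and 27.8% lower, and under the block 70.4%. The median difference of the 6 was 0.69 in EBs and 0.07 in ESCs, beside medians of −0.02 and −0.01 over all tested genes.

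Rn7sk was higher in KO than in WT in both kinds of cell. It had 196343 and 220409 normalized counts in KO EBs A and B, against 92183 and 96834 in WT EBs. In ESCs it had 188949 and 201312 in KO, against 100484 and 107834 in WT. KO and WT did not overlap in either. The ratio of the means was 2.20 in EBs and 1.87 in ESCs. The log2 difference was 1.14 ± 0.08 in EBs (limma adjusted p = 7.8e-06) and 0.91 ± 0.08 in ESCs (adjusted p = 2.7e-05). The difference between these, 0.23 ± 0.11, was not called (adjusted p = 0.122) but was under the block (adjusted p = 9.4e-07). Between EBs and ESCs of 1 genotype, Rn7sk was not called, at 0.09 ± 0.08 in KO (adjusted p = 0.343) and −0.14 ± 0.08 in WT (adjusted p = 0.161). The block called both (adjusted p = 4.4e-04 and 5.1e-06).

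Of 7 tested proteins of the 7SK particle and P-TEFb, 2 were called higher and 1 lower in KO EBs, where 51.8% of all tested genes were called, and 1 higher and 3 lower in KO ESCs, where 55% were. Without the block and with both directions joined, these shares are near those of all tested genes. Under the block the counts were 4 higher and 2 lower in EBs, where 67.6% of all tested genes were called. In ESCs they were 4 higher and 3 lower under the block, where 70.4% of all tested genes were called. Hexim2, an inhibitory subunit, was higher by 0.77 in KO EBs and 0.97 in KO ESCs, whereas Larp7, which binds the 3′ end of 7SK, was lower, at −0.74 in KO EBs and −0.78 in KO ESCs. Hexim1 was called lower in KO ESCs (−0.61), and Ccnt2, a cyclin subunit of P-TEFb, higher in KO EBs (0.31). Ccnt1, the other main cyclin of P-TEFb, was not called, at −0.03 in EBs and 0.11 in ESCs (adjusted p = 0.048 with the block in ESCs). The median of the list was 0.20 in EBs and 0.11 in ESCs.

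Rpph1 differed between the genotypes with opposite signs in EBs and in ESCs. In EBs it had 195620 and 142380 normalized counts in KO, against 147820 and 105881 in WT. In ESCs it had 191216 and 142287 in KO, against 258197 and 187716 in WT. Within a letter, KO was above WT in each EB pair and below it in each ESC pair, but A and B differed so much that KO and WT EBs overlapped, as did KO and WT ESCs. The ratio of the means was 1.33 in EBs and 0.748 in ESCs. Without the block neither difference was called, at 0.42 ± 0.23 in EBs (limma adjusted p = 0.160) and −0.42 ± 0.23 in ESCs (adjusted p = 0.153). With it both were called (adjusted p = 3.5e-14 in EBs and 3.8e-14 in ESCs). Leaving out 1 library moved the difference to 0.18 to 0.66 in EBs and −0.65 to −0.19 in ESCs, with no call.

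The difference between the genotype effects on Rpph1, EBs minus ESCs, was 0.83 ± 0.32 (limma adjusted p = 0.0764; 6.2e-16 with the block). It was called without WT ESC B (1.06, adjusted p = 0.0488) or WT EB A (1.07, adjusted p = 0.0440). From ESCs to EBs Rpph1 fell in WT by 0.82 ± 0.23 on the log2 scale (adjusted p = 0.0183), and in KO its difference was 0.02 ± 0.23 (adjusted p = 0.959). The WT call was lost without WT ESC A (−0.59, adjusted p = 0.115) and without WT EB B (−0.57, adjusted p = 0.117).

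Rmrp lay higher in KO than in WT EBs within each letter, and KO and WT ESCs overlapped. It had 123265 and 90400 normalized counts in KO EBs, against 82566 and 58468 in WT EBs. In ESCs it had 141064 and 103354 in KO, against 142371 and 100542 in WT. KO EBs lay above WT EBs without overlap, by a ratio of the means of 1.51. The log2 difference in EBs was 0.60 ± 0.24 (limma adjusted p = 0.0615; 3.4e-15 with the block; 0.0484 under TMM scaling), and leaving out 1 library moved it to 0.35 to 0.85. It was called without WT EB A (0.85, adjusted p = 0.0345), KO EB B (0.83, adjusted p = 0.0494), WT ESC A (adjusted p = 0.0491) or WT ESC B (adjusted p = 0.0494). In ESCs it was 0.01 ± 0.24 (adjusted p = 0.967). The difference between those effects was 0.59 ± 0.34 (adjusted p = 0.207; 2.4e-12 with the block).

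From ESCs to EBs Rmrp fell in WT by 0.78 ± 0.24 on the log2 scale (limma adjusted p = 0.0256), a call lost without WT ESC A (−0.53, adjusted p = 0.154) and without WT EB B (−0.54, adjusted p = 0.153). In KO the difference was −0.19 ± 0.24 (adjusted p = 0.535; 8.3e-08 with the block). Rmrp overlaps Ccdc107, a protein-coding gene on the other strand whose annotated exons cover 124 bases, or 45.8%, of Rmrp. The library kit does not mark strand, so reads over those bases cannot be assigned to either gene by strand. Ccdc107 had 113395 and 85277 normalized counts in KO EBs, against 76015 and 55130 in WT EBs. In the C libraries, where Rmrp had 0, Ccdc107 had 206 in KO and 142 in WT. In the A and B libraries Ccdc107 was 0.919 to 0.943 of the Rmrp value. How much of either value came from the other gene was not tested. Exons of Ccnb1ip1 cover 73% of Rpph1 on its own strand, and that gene had 16.5 to 35.9 normalized counts in any library. Another annotated gene named Rmrp covers 100% of Rmrp and had no values here. Reads set aside as ambiguous were 0.638% to 0.941% in A and B libraries, 0.454% in KO ESC C and 0.415% in WT ESC C. Whether Rpph1 or Rmrp lost reads over shared bases was not tested.

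Of 11 tested protein subunits of RNase P and RNase MRP, 6 were called higher and 2 lower in KO EBs, where 24.1% of all tested genes were called higher and 27.7% lower. In KO ESCs 5 were called higher and 2 lower, where 27.3% of all tested genes were called higher and 27.8% lower. The block gave 8 higher and 2 lower in EBs and 5 higher and 4 lower in ESCs. It called 67.6% of all tested genes in EBs and 70.4% in ESCs. Pop7 was higher by 1.49 in KO EBs and 1.83 in KO ESCs, Rpp25 by 1.81 in KO EBs, and its relative Rpp25l by 1.82 in KO ESCs. Pop4 was lower in both, at −0.83 in EBs and −0.79 in ESCs, as were Rpp30 in KO EBs (−0.56) and Rpp40 in KO ESCs (−0.55). Neither Rpp14 in EBs (0.23; adjusted p = 0.0156 with the block) nor Pop5 in ESCs (0.01), the most abundant without a call, passed the test. The list medians were 0.39 in EBs and 0.04 in ESCs. Their summed level was 3858 to 3898 in KO EBs, against 2582 to 2620 in WT EBs, and 5170 to 5360 in KO ESCs A and B, against 3617 to 3693 in WT ESCs A and B.

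Rpph1 and Rmrp shared a letter effect that was larger than that of the other 4 RNAs. Replicate A was above replicate B in all 4 groups, by a ratio of 1.34 to 1.40 for Rpph1 and 1.36 to 1.42 for Rmrp. For Rn7sk the ratio was 0.891 to 0.952, for Neat1 0.886 to 0.947, for Malat1 0.940 to 1.01 and for Terc 1.00 to 1.21. Of all tested genes 5.32% had a mean difference between A and B larger in size than that of Rpph1, and 4.85% one larger than that of Rmrp. Of the Cajal body RNAs, Scarna2 and Scarna13 also had A above B in each group, whereas Scarna6 and Scarna10 had A below B. No label says what A and B stand for across groups.

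**Figure D3:**
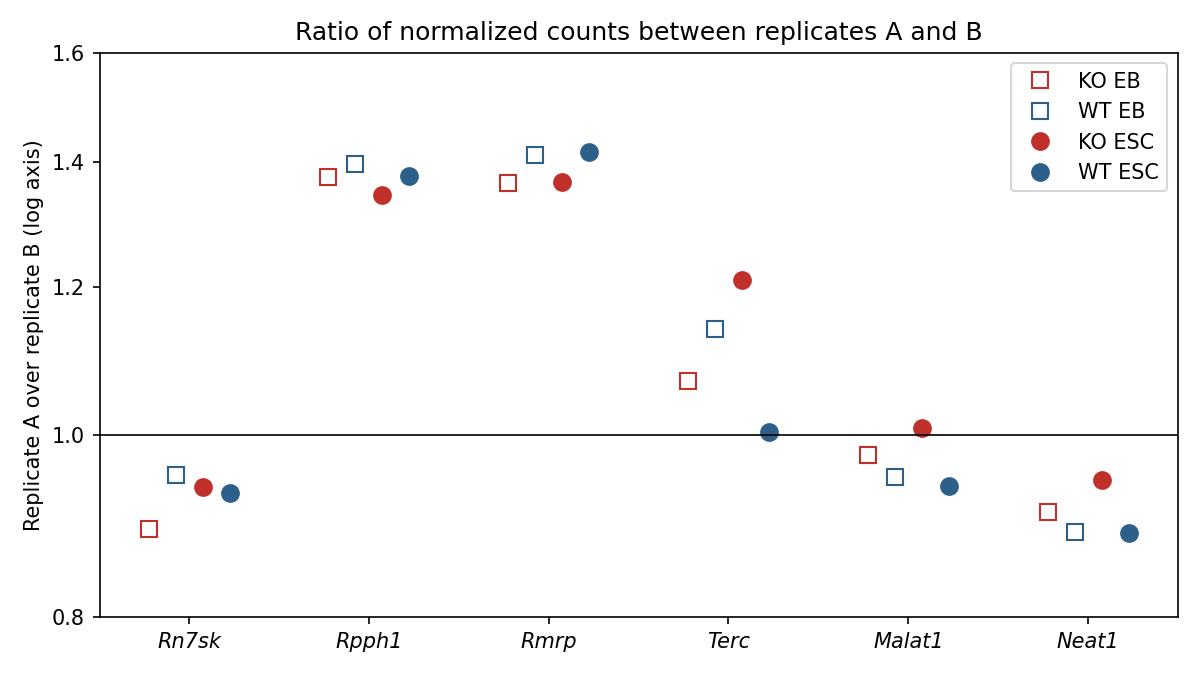
Ratio of replicate A to replicate B normalized counts (y axis, log scale) for each RNA in the 4 groups. Rpph1 and Rmrp lie between 1.34 and 1.42 in each group, and Rn7sk and Neat1 below 1.

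Terc differed between the genotypes in EBs. It had 1078 and 1008 normalized counts in KO EBs, against 653 and 572 in WT EBs. In ESCs it had 889 and 735 in KO, against 811 and 808 in WT. KO EBs lay above WT EBs without overlap, whereas the ESC groups overlapped. The log2 difference was 0.77 ± 0.12 in EBs (limma adjusted p = 9.4e-04) and −0.00 ± 0.12 in ESCs (adjusted p = 0.991), and the effects differed by 0.77 ± 0.17 (adjusted p = 0.0088).

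Terc was higher in KO EBs than in KO ESCs, at 0.37 ± 0.12 (limma adjusted p = 0.0362), and lower in WT EBs than in WT ESCs, at −0.40 ± 0.12 (adjusted p = 0.0251). The KO call was lost when WT ESC A, WT ESC B, KO ESC B, KO EB A or KO EB B was left out, with values from 0.23 to 0.41, and the WT call when WT ESC A, WT ESC B or WT EB B was left out, with values from −0.41 to −0.31. Of 7 telomerase proteins tested, 4 were called higher and 2 lower in KO EBs, where 51.8% of all tested genes were called. In KO ESCs 2 were called higher and 2 lower, where 55% of all tested genes were called. Under the block the counts were 5 higher and 2 lower in EBs and 4 higher and 3 lower in ESCs. Each of the 7 was thus called, where the block called 67.6% of all tested genes in EBs and 70.4% in ESCs. Tert, the reverse transcriptase, was higher by 0.68 in KO EBs and 1.21 in KO ESCs. Wrap53, which carries telomerase to Cajal bodies, was lower, at −0.56 in EBs and −0.83 in ESCs. Of the H/ACA proteins that bind the RNA, Gar1 was higher (0.55 in KO EBs, 0.87 in KO ESCs) and Nhp2 lower (−0.74 and −0.41). Naf1 in EBs (0.38) and Dkc1, dyskerin, in ESCs (−0.14) were called under the block alone (adjusted p = 0.0017 and 0.0029).

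Malat1 was higher in KO than in WT EBs, and its ESC difference was called only under the block. It had 101336 and 103757 normalized counts in KO EBs, against 70757 and 74475 in WT EBs, and these did not overlap. In ESCs it had 96311 and 95409 in KO, against 85369 and 90809 in WT, again without overlap. The log2 difference was 0.50 ± 0.06 in EBs (limma adjusted p = 1.5e-04) and 0.12 ± 0.06 in ESCs (adjusted p = 0.0973; 2.9e-05 with the block). The effects differed by 0.38 ± 0.08 (adjusted p = 0.0071; 0.0676 by DESeq2).

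Malat1 was lower in WT EBs than in WT ESCs, at −0.28 ± 0.06 (limma adjusted p = 0.0041), and its difference between KO EBs and KO ESCs was 0.10 ± 0.06 (adjusted p = 0.193; 3.2e-04 with the block). Of 10 nuclear speckle proteins, 4 were called higher and 5 lower in KO EBs, and 3 higher and 5 lower in KO ESCs. Of all tested genes 51.8% were called in EBs and 55% in ESCs. The counts with the block were 5 higher and 5 lower in EBs and 3 higher and 6 lower in ESCs. The block called 67.6% of all tested genes in EBs and 70.4% in ESCs. Ythdc1, a reader of m6A in the nucleus, was higher by 1.04 in KO EBs and 1.19 in KO ESCs. Srsf7, a splicing factor, was lower, at −0.41 in EBs and −0.90 in ESCs. Srrm2, a core speckle protein, was higher (0.37 in KO EBs, 0.63 in KO ESCs), and the splicing factors Srsf2 in KO EBs (−0.51) and Srsf1 in KO ESCs (−0.52) were lower. Srsf5 in EBs (0.13) and Srsf2 in ESCs (−0.35) were called under the block alone (adjusted p = 9.0e-04 and 5.6e-09).

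Neat1 had the largest genotype difference of the 6 in replicates A and B of the ESCs. It had 4846 and 5323 normalized counts in KO EBs, against 2139 and 2408 in WT EBs. In ESCs it had 6863 and 7249 in KO, against 751 and 847 in WT. The groups did not overlap in either. The ratio of the means was 2.24 in EBs and 8.83 in ESCs. The log2 difference was 1.16 ± 0.09 in EBs (limma adjusted p = 2.0e-05) and 3.14 ± 0.09 in ESCs (adjusted p = 4.1e-07). The effect in EBs was smaller than that in ESCs by 1.98 (−1.98 ± 0.13, adjusted p = 1.9e-05).

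Neat1 was lower in KO EBs than in KO ESCs, at −0.47 ± 0.09 (limma adjusted p = 0.0031), and higher in WT EBs than in WT ESCs, at 1.51 ± 0.09 (adjusted p = 6.5e-06). Gene counts do not separate the long and the short RNA of Neat1, which share their 5′ part. Of 10 paraspeckle proteins, 2 were called higher and 3 lower in KO EBs, and 0 higher and 8 lower in KO ESCs, where 27.8% of all tested genes were called lower. Under the block the counts were 3 higher and 5 lower in EBs and 1 higher and 9 lower in ESCs. Of all tested genes 51.8% were called in EBs without the block, and 67.6% in EBs and 70.4% in ESCs with it. Hnrnph3 (−0.90) and Dazap1 (−0.65) were the lowest in KO ESCs, and in KO EBs Rbm14 (0.49) and Nono (0.25) were called higher and Pspc1 (−0.51) lower. Sfpq in EBs (−0.31) and Rbm14 in ESCs (0.28) were called under the block alone (adjusted p = 7.3e-09 and 9.6e-04). The list median was −0.17 in EBs and −0.39 in ESCs.

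**Figure D4:**
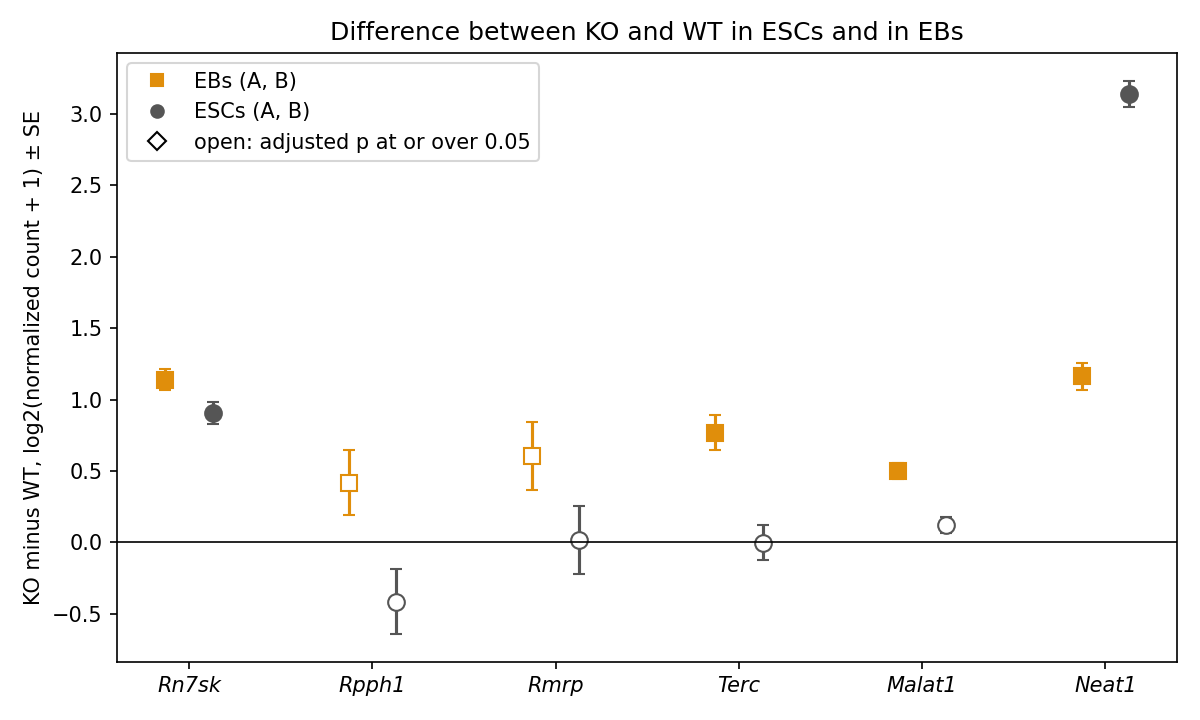
Difference between KO and WT (y axis, log2 of normalized count + 1, mean ± SE from limma) for each RNA in EBs (squares) and in ESC replicates A and B (circles). Filled symbols have an adjusted p under 0.05. Neat1 in ESCs is farthest from 0, at 3.14, and Rpph1 has opposite signs, 0.42 in EBs and −0.42 in ESCs.

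In replicate C the 2 long RNAs went the other way between the genotypes. Malat1 had a KO to WT ratio of 0.473 in ESC C (95% counting interval 0.400 to 0.558), against 1.13 in ESC A and 1.05 in ESC B. For Neat1 the ratio was 0.101 in ESC C (0.0700 to 0.141), against 9.14 in ESC A and 8.56 in ESC B. In EBs the ratios of Neat1 were 2.27 in A and 2.21 in B. The genotype effect in C minus that in A and B was −6.44 ± 0.16 for Neat1 (limma adjusted p = 1.6e-07) and −1.20 ± 0.10 for Malat1 (adjusted p = 7.4e-05). In this comparison 4 of 6 RNAs were called, where 37.8% of all tested genes were. The calls of Rn7sk and Rpph1 rest on 0 to 7 reads in C. Replicate C has a single library per genotype, and its spread was taken as that of the A and B pairs. With C counted as an ordinary replicate, the difference of Neat1 between KO and WT ESCs was 1.00 (adjusted p = 0.884).

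**Figure D5:**
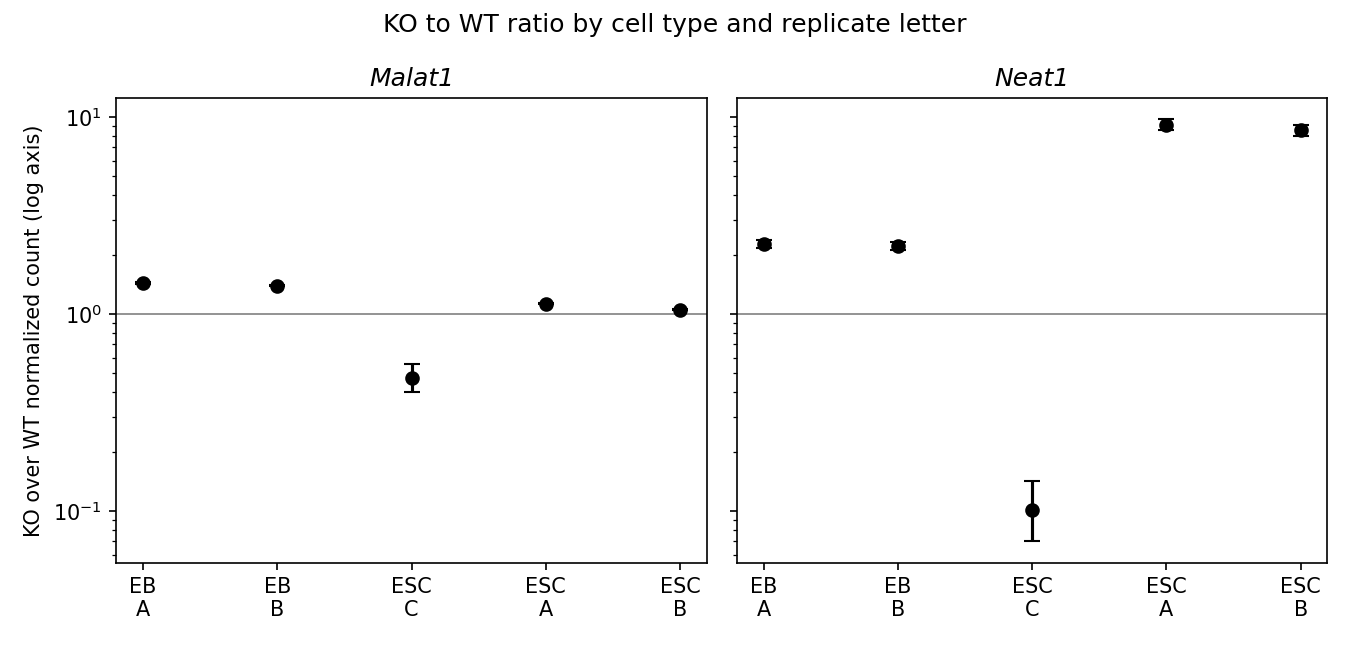
Ratio of KO to WT normalized counts (y axis, log scale) of Malat1 and Neat1 by cell type and replicate letter (x axis), with 95% counting intervals. The ratio of Neat1 is 9.14 and 8.56 in ESC A and B and 0.101 in ESC C.

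Between EBs and ESCs, calls among the 6 RNAs were as follows. In KO EBs against KO ESCs 1 of 6 was called higher and 1 lower, where 47.1% of all tested genes were called, and under the block 3 higher and 2 lower, where 65.1% were. In WT EBs against WT ESCs 1 of 6 was called higher and 4 lower, where 45.8% of all tested genes were called, and under the block 1 higher and 5 lower, where 64.5% were. For the difference between the genotype effects, 3 of 6 were called, where 36% of all tested genes were, and under the block 6 of 6, where 57.3% were. Widespread change across all tested genes is the background to each of these counts.

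RNA polymerase III makes Rn7sk, Rpph1 and Rmrp. Of 21 tested subunits and promoter factors, 7 were called higher and 2 lower in KO EBs, and 7 higher and 6 lower in KO ESCs, with list medians of 0.02 and −0.07. Of all tested genes 51.8% were called in EBs, 24.1% higher and 27.7% lower. In ESCs 55% were called, 27.3% higher and 27.8% lower. In EBs the list thus leaned to higher calls more than all tested genes did, a lean that was not tested. The block gave 9 higher and 2 lower in EBs and 7 higher and 8 lower in ESCs. It called 67.6% of all tested genes in EBs and 70.4% in ESCs. Snapc1, a subunit of the promoter-binding complex SNAPc, was lower, at −1.51 in KO EBs and −1.49 in KO ESCs. Polr3gl, an alternative polymerase subunit, was higher in KO EBs (0.81) and lower in KO ESCs (−1.75). Snapc5 was higher (0.85) and Tbp, the TATA-binding protein, lower (−0.44) in KO EBs, and Polr3d (1.19) and Snapc2 (1.04) were higher in KO ESCs. Bdp1, a subunit of TFIIIB, was not called, at 0.02 in EBs and −0.09 in ESCs. The other 13 tested short RNAs without a poly(A) tail gave 6 calls higher and 1 lower in KO EBs (median 0.96). Of all tested genes 24.1% were called higher there and 27.7% lower. In KO ESCs 2 of the 13 were called higher and 1 lower (median 0.33), where 27.3% and 27.8% of all tested genes were. Under the block the counts were 8 higher and 1 lower in EBs and 6 higher and 1 lower in ESCs. In EBs the block called 32.2% of all tested genes higher. Rnu3a, the U3 RNA of ribosomal RNA processing, was higher by 1.53 in KO EBs and 0.68 in KO ESCs. The Cajal body RNAs Scarna9 (1.80) in KO EBs and Scarna10 (0.44) in KO ESCs were higher too, and Rnu73b was lower (−1.24 in KO EBs, −1.55 in KO ESCs). Rn7s1 in EBs (0.57) was not called, and Scarna2 in ESCs (0.20) was called under the block alone (adjusted p = 7.9e-04).

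The genes whose log2 values were most like each RNA over the 8 A and B libraries were taken from 9308 genes with a mean of at least 100, as a description over libraries that share groups and letters. For Rmrp the first was its overlapping neighbour Ccdc107 (Pearson r = 1.00), then the pseudogene Rps19-ps6 (0.996) and Eif4ebp1 (0.985). For Rn7sk they were Eif2s3y (0.998), Hjurp (0.994) and Simc1 (0.994), for Neat1 Sec16a (0.998), Stag3 (0.997) and Gtf2e1 (0.994), and for Malat1 Kat6b (0.995), Mios (0.991) and Eef1a1 (0.989). For Rpph1 they were Chtop (0.983), Hist1h4k (0.979) and Btbd2 (0.978), and for Terc Cdc42ep5 (0.984), Kcnh3 (0.977) and Mif4gd (0.972). Among the 6 themselves, Rpph1 and Rmrp were most alike (r = 0.904), and Rpph1 and Neat1 least (r = −0.38).

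GGACT, a common form of the m6A motif, was counted on the sense strand. Rn7sk, Rpph1 and Rmrp held 0, Terc 1, Malat1 9 (1.29 per kb) and the long Neat1 RNA 23 (1.11 per kb). Over all GENCODE transcripts there were 1.08 per kb. These counts describe letters, and no methylation was measured here.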

How the data were processed

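PolyA RNA-seq libraries were made with the TruSeq RNA v2 kit, per the labels' protocols, which does not mark strand. Per the submitters' processing notes, the build was mm10 and the tools were TopHat2 2.0.10 with Bowtie, HTSeq 0.6.0, CASAVA 1.8.2 and DESeq; the annotation release and the HTSeq strand setting are not given in the sources used here. A single library protocol is given for all libraries, and the values of replicates A and B hold RNAs without a poly(A) tail that replicate C nearly lacks. The deposited signal values are counts per gene that the authors divided by DESeq size factors. The lowest value over 0 in a library was taken as 1 read, and 100% of values were whole multiples of it (tolerance 0.01). 5 HTSeq summary lines were left out; in A and B libraries they put 36.9% to 46.1% of reads as not uniquely aligned, so near copies of the short RNAs could lose reads. 37693 of 39179 identifiers matched a symbol.

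The main test was limma 3.58.1 (R 4.3.3; trend and robust moderation) on log2(value + 1), in a single fit of 10 libraries with 6 means (KO and WT EBs, KO and WT ESC C, KO and WT ESC A and B; 4 residual degrees of freedom), for 15781 genes with a mean of 10 or more, with Benjamini-Hochberg adjustment and a threshold of 0.05. edgeR 4.0.16 and DESeq2 1.42.0 on the recovered reads were alternatives. Counting intervals are exact binomial, at 95% (scipy). The letters A and B were taken as pairs because the differences A minus B correlated across genes in each of 6 pairs of the 4 groups, at 0.325 to 0.369. Deviations from the ESC group means also correlated between KO and WT (0.845, 0.828 and 0.858 for A, B and C), but the distance of C from A and B fixes most of that, A and B correlating with each other at 0.809 to 0.812. The fit code was tested on simulated data. Members, lists and tests were chosen with earlier results of these data known. Genes named from lists are up to 2 called in each direction with the largest difference, and the most abundant without a call; for alike genes, the 3 with the highest r. 1 gene that this rule names is not reported here. The comparison of the genotype effect in replicate C and the edgeR fit with a block were added after the values were seen.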

Additional observations from a re-analysis of the deposited data

Results flagged for a closer look

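The genotype effect differed between EBs and ESCs, by the test of the difference itself, for Neat1, Terc and Malat1. For Neat1 the effect in EBs minus that in ESCs was −1.98 on the log2 scale (limma adjusted p = 1.9e-05), KO being above WT in 2 of 2 letter pairs in EBs and in 2 of 2 in ESCs A and B. For Terc it was 0.77 (adjusted p = 0.0088), KO being above WT in 2 of 2 EB pairs and in 1 of 2 ESC pairs. For Malat1 it was 0.38 (adjusted p = 0.0071), KO being above WT in 2 of 2 pairs in each.

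The genotype effect also differed between ESC replicate C and ESC replicates A and B. The effect in C minus that in A and B was −6.44 for Neat1 (limma adjusted p = 1.6e-07) and −1.20 for Malat1 (adjusted p = 7.4e-05). Mettl3 was at 131 in KO ESC C and 425 in WT ESC C, so the labels of the C libraries hold for the targeted gene. The summed fibroblast markers were 183 in KO ESC C and 227 in WT ESC C, against 6560 to 11286 in ESC A and B libraries. Thy1 alone among them was higher in C. The part of these markers' cells in the difference was not tested.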

How the results depend on the processing

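Over alternatives other than leaving out a library, 346 values for the 6 RNAs kept their direction and side of the threshold, 28 lost a call, 26 gained it and 20 changed sign. Of these, 21 lost calls and 16 sign changes came with 2 treatments of replicate C, and 7 lost calls and 4 sign changes with other settings. The 7 were Terc in KO EBs against KO ESCs (adjusted p = 0.0540), Rpph1 (0.0817) and Rmrp (0.0901) in WT EBs against WT ESCs without the filter on low values, and, by DESeq2, Terc in KO (0.0671) and WT (0.0525) and Rmrp in WT (0.0623) between EBs and ESCs, and Malat1 in the difference of effects (0.0676). Counting it as an ordinary replicate left 290 calls for KO against WT EBs, 376 for KO against WT ESCs, 127 for KO EBs against KO ESCs, 392 for WT EBs against WT ESCs and 75 for the difference of effects. A single term for C left 4638, 5825, 3955, 3979 and 2282. With both, KO against WT ESCs turned to −0.28 for Malat1, and the difference of effects to −0.37 for Rn7sk and 0.17 for Neat1. KO EBs against KO ESCs became 5.43 for Rmrp and 1.54 for Neat1 with C as an ordinary replicate, and −0.21 for Rn7sk and 0.60 for Neat1 with the term. WT EBs against WT ESCs became 5.42 for Rn7sk, 3.57 for Rpph1, 4.84 for Rmrp, 2.82 for Terc and 1.74 for Malat1 with C as an ordinary replicate, and 0.16 for Rn7sk with the term. By construction these settings put the C values into the ESC means.

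Terc in KO against WT ESCs, near 0, turned to 0.031 under TMM, 0.041 by edgeR, 0.0075 by DESeq2 and 0.051 by edgeR with the replicate block. DESeq2 called 4846 genes in KO EBs against KO ESCs, 4712 in WT and 3232 for the difference of effects; the cause was not tested. The replicate block gave 9040 for the difference of effects and edgeR with the block 9204; it gained calls for 11 values of the 6 RNAs, given above, and lost none. Leaving out each library moved the counts to 6531 to 8248 (KO against WT EBs), 7010 to 8731 (ESCs), 5687 to 7490 and 5675 to 7317 (EBs against ESCs in KO and WT), 4526 to 5728 (difference of effects) and 12598 to 12880 (C). Signs changed in KO against WT ESCs for Rmrp (−0.24 to 0.26) and Terc (−0.14 to 0.14), and in KO EBs against KO ESCs for Rpph1 (−0.21 to 0.25) and Rmrp (−0.42 to 0.030). With 2 libraries a group and 4 residual degrees of freedom, differences of the size of the A to B ratio of Rpph1 and Rmrp are not resolved without the block.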

Other observations

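Other long noncoding RNAs on the list differed between the genotypes in both directions. Of 10 tested, 5 were called higher and 3 lower in KO EBs, and 2 higher and 4 lower in KO ESCs, with list medians of 0.38 and −0.29 (log2), beside 51.8% and 55% of all tested genes called. Under the block the counts were 6 higher and 4 lower in EBs and 2 higher and 5 lower in ESCs. The block called 67.6% of all tested genes in EBs and 70.4% in ESCs. Snhg6, a snoRNA host gene, was higher by 1.92 ± 0.09 in KO EBs (limma adjusted p = 1.3e-06) and 1.01 ± 0.09 in KO ESCs (adjusted p = 3.4e-05). The imprinted Meg3 was lower, at −3.20 ± 0.09 in KO EBs (adjusted p = 1.3e-07) and −1.81 ± 0.09 in KO ESCs (adjusted p = 3.4e-06). Tug1 was lower too, at −1.18 ± 0.09 in KO EBs and −1.54 ± 0.09 in KO ESCs. Miat was higher in KO EBs, at 2.29 ± 0.39, with 74.9 and 62.0 normalized counts in KO EBs, against 15.3 and 11.2 in WT EBs.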
